A study of Mus musculus with 2 samples.

Results

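The 7 genes described here, Neurog1, Neurod1, Hes6, Sox11, Gap43, Gng8 and Kit, are marker genes of olfactory progenitors and immature olfactory neurons, listed by name, with no threshold on a measured value. They are 7 of 21544 protein-coding genes of GENCODE M21 (GRCm38) whose starts lie between the first and the last boundary of their chromosome, and all 7 were found by symbol. The data are in situ Hi-C of mature olfactory sensory neurons expressing Olfr16, isolated by flow cytometry from adult MOR23-GFP mice, whose olfactory epithelium was the source tissue. Biological replicate 1 had 28000 cells and replicate 2 had 24400 cells, from mice of both sexes, with no treatment and no strain specified in the labels. The 2 replicates form 1 group. The authors called 7435 chromatin boundaries, each an interval of 5 kb, on both replicates combined, so no boundary has a value per replicate and no spread or depth can be given. Each boundary carries the authors' score and a class, Strong (scores of at least 0.5) or Weak. Hi-C measures no expression, so neither the sort nor the level of these genes in the sorted cells could be checked here. All values below are descriptions of 1 pooled list, without a test.

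The olfactory epithelium renews its neurons throughout life. Globose basal cells divide, pass through a stage driven by proneural transcription factors, and become immature neurons. These extend an axon and mature, and each mature neuron expresses 1 receptor gene. Neurog1 and Neurod1 encode proneural basic helix-loop-helix factors of that lineage, and Hes6 a related factor that favours neuronal differentiation. Sox11 is a SoxC transcription factor of newborn neurons. Gap43 encodes a growth cone protein and Gng8 a G protein gamma subunit of immature olfactory neurons, while Kit is the receptor tyrosine kinase for Kit ligand and marks progenitors of the lineage. Boundaries separate stretches of chromosome that contact themselves more than their neighbours, so the boundaries on either side of a gene delimit the stretch it shares with other genes and control elements. That stretch is called its interval below.

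CTCF is the insulator protein found at many mammalian boundaries, and its recognition sequence has a direction. The CTCF consensus was searched on both strands, and the 8 matches within 10 kb of the boundaries flanking the 7 genes are shown as the sequence feature looked for at those boundaries. Each line gives the match in capitals with 20 bases of the GRCm38 reference on either side, in lower case, read 5′ to 3′ on the strand of the match. In the names below, upstream and downstream refer to the direction of transcription of the gene.
Neurog1 upstream boundary, chr13:56290162-56290213, - strand: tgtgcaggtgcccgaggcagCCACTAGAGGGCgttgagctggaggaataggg
Neurog1 upstream boundary, chr13:56291225-56291276, - strand: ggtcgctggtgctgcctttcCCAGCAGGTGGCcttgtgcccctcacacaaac
Gap43 downstream boundary, chr16:42165103-42165154, - strand: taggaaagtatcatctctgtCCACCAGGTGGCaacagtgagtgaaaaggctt
Gng8 upstream boundary, chr7:16809934-16809985, - strand: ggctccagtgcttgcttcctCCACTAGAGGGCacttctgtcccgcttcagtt
Gng8 downstream boundary, chr7:16931005-16931056, + strand: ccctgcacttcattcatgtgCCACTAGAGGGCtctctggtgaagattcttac
Gng8 downstream boundary, chr7:16932140-16932191, + strand: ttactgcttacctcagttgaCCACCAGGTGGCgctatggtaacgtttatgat
Kit upstream boundary, chr5:75156352-75156403, - strand: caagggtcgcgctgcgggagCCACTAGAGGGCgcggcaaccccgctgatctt
Kit downstream boundary, chr5:75853231-75853282, - strand: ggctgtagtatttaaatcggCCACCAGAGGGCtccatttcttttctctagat

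None of the 7 genes started within 10 kb of a boundary, and none within 25 kb. Over all protein-coding genes, 12.5% of starts lay within 10 kb and 24.8% within 25 kb. A count of 0 of 7 allows a share of up to 42.9% if 3 counts are taken as the limit and up to 41.0% by the exact (Clopper-Pearson) 95% interval, limits that cover counting error only, so a list of 7 genes cannot tell these shares apart from the background. Within 50 kb there were 3 of 7, beside 44.3% of all starts. The median distance was 79.0 kb for the 7 genes, against 57.8 kb for all protein-coding starts (quartiles 25.4 and 105.9 kb). With Strong boundaries only, the medians were 156 kb for the 7 genes and 101.5 kb for all protein-coding starts, and with scores of at least 0.3 they were 156 and 71.0 kb. The 7 distances ran from 27.8 to 275 kb.

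Neurog1 (27.8 kb) and Gng8 (28.2 kb) were the closest to a boundary, at or beyond the distance of 26.9% and 27.2% of protein-coding starts. Neurod1 followed at 43.3 kb and Hes6 at 79.0 kb, near the middle of the genome's distribution. Gap43 was 104.4 kb away. Sox11 (247 kb) and Kit (275 kb) were at or beyond the distance of 94.2% and 95.04% of all protein-coding starts. For 4 of the 7 genes, Neurog1, Neurod1, Sox11 and Gap43, the nearer boundary was the upstream one. No gene body among the 7 held a boundary, beside 15.5% of all protein-coding genes that do, a share that 0 of 7 (up to 42.9% by 3 counts) cannot be told apart from. Gap43 (92.2 kb) and Kit (81.8 kb) are the long ones, and the other 5 bodies measure 1.69 to 8.31 kb.

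**Figure D1:**
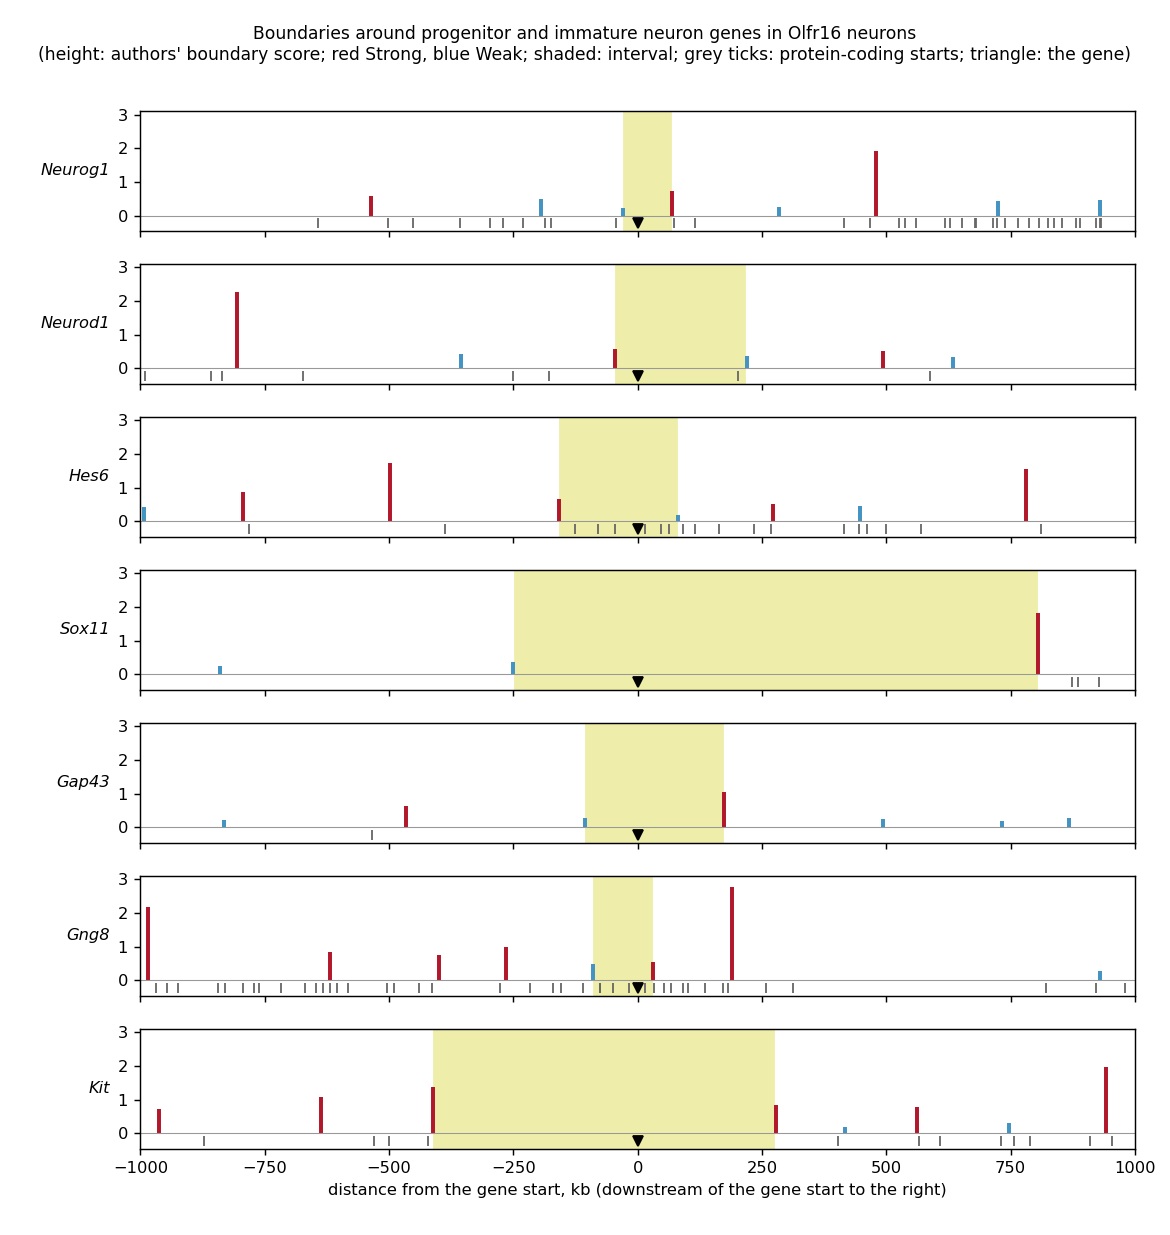
Boundaries around each of the 7 genes, by distance in kb from the gene start with transcription to the right (x axis), with bar height giving the authors' boundary score (y axis, no unit) and colour the class. Shading marks the interval of the gene, from 95 kb for Neurog1 to 1050.0 kb for Sox11, and grey ticks mark other protein-coding starts, which are absent from the shaded interval of Neurog1, Sox11, Gap43 and Kit.

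**Figure D2:**
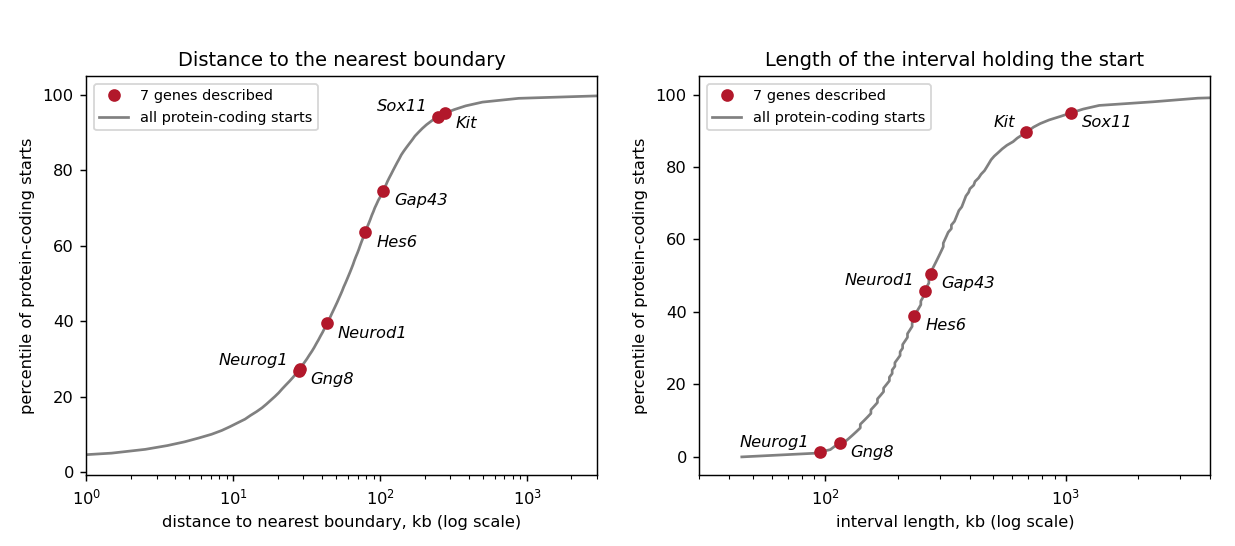
Distance to the nearest boundary (left) and length of the interval (right), both in kb on a log scale, against the percentile among protein-coding starts. The 7 genes (red) are spread along the genome's curve (grey), with Sox11 and Kit at the long end of both panels and Neurog1 and Gng8 at the short end of the right panel only.

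The intervals differed more than 10-fold in length. Their median was 260.0 kb, against 275 kb for all protein-coding starts outside boundaries (quartiles 195 and 415 kb; each gene counted once, since long intervals hold more genes). Neurog1 and Gng8 had 95 and 115 kb, lengths that only 1.31% and 3.83% of protein-coding starts reach or fall below. Hes6 (235 kb), Neurod1 (260.0 kb) and Gap43 (275 kb) lay between the quartiles. Kit had 685 kb and Sox11 1050.0 kb, at the 89.6 and 94.9 percentiles. None of the 7 intervals contained unassembled bases in the reference.

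In 4 of the 7 cases, Neurog1, Sox11, Gap43 and Kit, the gene was the only protein-coding start of its interval. Over all protein-coding starts outside boundaries, 8.85% stood alone in this way, and 9.45% when olfactory and vomeronasal receptor genes were left out. The 4 genes also stood alone with the RefSeq annotation. With Strong boundaries only, 2 of the 7, Gap43 and Kit, stood alone, beside 3.31% of all protein-coding starts. With scores of at least 0.3 there were 3, Gap43, Kit and Sox11, beside 6.36%. Among 26 other genes of progenitors and immature neurons, 6 were alone in their interval (23.1%). These were 3 of 9 progenitor regulators, 0 of 6 proliferation genes and 3 of 11 immature neuron genes. Outside boundaries, 3 of 16 family relatives of the 7 genes, 1 of 14 mature neuron genes and 2 of 12 non-neuronal genes were also alone. These lists were drawn up with earlier results of these data known, and the difference from the background was not tested.

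Neurog1 (chromosome 13, 56250478 to 56252163, - strand) had the shortest of the 7 intervals. Its 95 kb ran from 56185001 to 56280000, and held 2 genes of other kinds, a processed pseudogene and the lincRNA 4930550C17Rik, whose start lay 8.22 kb downstream. The upstream boundary, 27.8 kb away, was Weak with a score of 0.234, and only 9.94% of all boundaries score as low or lower. Without boundaries scored under 0.3 the interval of Neurog1 was 260.0 kb, with Strong boundaries only it was 600.0 kb, and in both cases the nearest boundary was 67.2 kb away. Beyond the upstream boundary the nearest protein-coding start was that of Cxcl14, a chemokine gene, 11.6 kb from that boundary. The downstream boundary (56180001 to 56185000) was Strong, 0.734, and 67.2 kb away. It lay 1.12 kb from the start of Tifab, an adaptor protein gene. Neither boundary overlapped a gene. Both CTCF matches of Neurog1 shown above lay beyond its upstream boundary, at 5.18 and 6.25 kb, and pointed towards the gene.

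Neurod1 (chromosome 2, 79452521 to 79456751, - strand) shared 260.0 kb, from 79240001 to 79500000, with Itga4, an integrin gene, and Cerkl, a ceramide kinase-like gene. GENCODE places the start of Cerkl 34 bp from that of Neurod1, on the same strand, through 1 of its 12 transcripts, a noncoding one. RefSeq places it 27.8 kb downstream of Neurod1. The upstream boundary was Strong (0.581) at 43.3 kb and the downstream one Weak (0.360) at 216.8 kb. Both were intergenic, and the start of Itga4 lay 15.4 kb from the downstream one. No exact match to the CTCF consensus lay within 25 kb of either boundary.

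Hes6 (chromosome 1, 91411483 to 91414038, - strand) lay in an interval of 235 kb (91335001 to 91570000) with 6 other protein-coding starts. Its interval thus held 7 starts, where the median over all protein-coding starts outside boundaries was 6. Per2, a core gene of the circadian clock, had its start 45.3 kb upstream, and Ilkap, a phosphatase gene, 15.2 kb downstream. The others were Erfe, which encodes the iron hormone erythroferrone, Klhl30, Asb1 and Traf3ip1, a gene of ciliary transport. The upstream boundary was Strong with a score of 0.678, at 156 kb. The downstream one, 79.0 kb away in coding sequence of Espnl, an espin-like gene, was Weak. Its score of 0.201 was close to the lowest of the list, and only 31 of 7435 boundaries scored lower. Without boundaries scored under 0.3, the interval of Hes6 was 425 kb.

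Sox11 (chromosome 12, 27334264 to 27342574, - strand) was the only protein-coding gene in 1050.0 kb, from 26540001 to 27590000. The gene lay 247 kb from a Weak upstream boundary with a score of 0.368 and 803 kb from a Strong downstream one. That Strong boundary (26535001 to 26540000) scored 1.81, at or above 94.2% of boundaries and the highest of all those flanking the 7 genes. Cmpk2, a nucleotide kinase gene named after its value was seen, had the nearest protein-coding start to it, 65.8 kb away. Within 1 Mb of Sox11 there were 3 other protein-coding starts and 3 boundaries, where the medians over all protein-coding genes were 29 starts and 7 boundaries. With Strong boundaries only, its interval was 2025 kb.

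Gap43 (chromosome 16, 42248442 to 42340651, - strand) filled 33.5% of its 275 kb interval (42170001 to 42445000), the largest share among the 7. Its upstream boundary was Weak (0.271) at 104.4 kb. Its downstream boundary was Strong (1.04), 170.7 kb from the start and 78.4 kb from the gene's end. This boundary (42165001 to 42170000) lay in the last part of Lsamp, a long neuronal adhesion gene that runs towards Gap43 from the other side, overlapping its coding and untranslated exon sequence. Lsamp extended 11.7 kb past the boundary into the interval of Gap43. The CTCF match of Gap43 lay inside this boundary, on the - strand, and pointed away from the gene. Within 1 Mb there was 1 other protein-coding start, that of the zinc finger gene Zbtb20, named after its value was seen. Only 0.794% of protein-coding genes have as few.

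Gng8 (chromosome 7, 16891786 to 16895436, + strand) lay in the most gene-dense interval, 6 protein-coding starts in 115 kb (16805001 to 16920000). Among the others were Strn4, the kinase gene Prkd2, Dact3 and the prostacyclin receptor gene Ptgir, with Ptgir 14.7 kb downstream and Dact3 16.5 kb upstream of Gng8. The boundaries were of nearly equal score. The upstream one (0.486, at 86.8 kb) was classed Weak and the downstream one (0.544, at 28.2 kb) Strong, on either side of the class limit of 0.5. The downstream boundary (16920001 to 16925000) held the start of Calm3, a calmodulin gene. All 3 CTCF matches at the boundaries of Gng8 pointed away from it, 1 of them 4.95 kb inside the interval and the other two 6.03 and 7.16 kb beyond its downstream boundary.

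Kit (chromosome 5, 75574916 to 75656722, + strand) was the only one of the 7 genes between 2 Strong boundaries, beside 37.7% of all protein-coding starts outside boundaries. Its interval of 685 kb, from 75165001 to 75850000, held no other protein-coding start and 11 annotated genes of other kinds. The upstream boundary, at 409.9 kb, scored 1.38, at or above 87.6% of boundaries. It lay in exons of Pdgfra, 7.71 kb from the start of that gene, so that 33.2 kb of Pdgfra lay on the side of Kit. The downstream boundary scored 0.832, at 275 kb, in an exon of the lincRNA Gm28865, and held a CTCF match that pointed towards Kit. The match at the upstream boundary lay 3.62 kb beyond it and pointed away. Pdgfra, Kit and Kdr, which was named after its value was seen, encode receptor tyrosine kinases and lie in a row. Their starts were 422.6 kb (Pdgfra to Kit) and 403.5 kb (Kit to Kdr) apart, with 1 boundary in each gap, both Strong, so that the 3 starts lay in different intervals.

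The remaining 6 genes each lay between 1 Strong and 1 Weak boundary, a combination found for 48.7% of all protein-coding starts outside boundaries. For Gng8 this rested on scores on either side of the class limit. Of the 14 flanking boundaries, 8 were Strong, beside 51.8% of the whole list, and their median score was 0.563, against 0.520 for the list. The list counts each boundary once, not once per gene start that it flanks. Neither value is therefore a like-for-like background for the 14. For each gene the higher and the lower of its flanking scores were also taken. The median of the higher was 0.734 for the 7 genes against 1.02 for all protein-coding starts outside boundaries, and that of the lower 0.360 against 0.415. The nearest boundary was Strong for 3 of the 7, Neurod1, Gng8 and Kit, beside 62.9% of all protein-coding starts. A protein-coding start lay within 10 kb of 4 of the 14 flanking boundaries, those next to Tifab, Espnl, Calm3 and Pdgfra. The share was 27.8% for the list, again counted once per boundary.

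**Figure D3:**
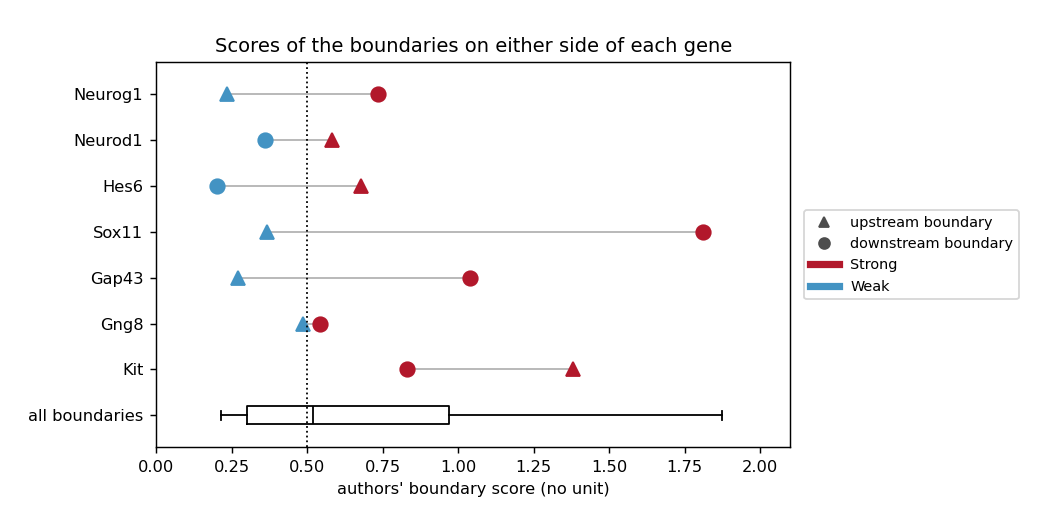
Authors' boundary score (x axis, no unit) of the upstream (triangle) and downstream (circle) boundary of each gene, coloured by class, with the class limit of 0.5 as a dotted line. The box at the bottom gives the quartiles of all 7435 boundaries and whiskers from the 5 to the 95 percentile. Kit is the only gene with both scores above the limit, and the scores of Sox11 lie farthest apart, 0.368 and 1.81.

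A CTCF consensus match lay within 10 kb of 6 of the 14 flanking boundaries, beside 23.1% of the whole list. These were the upstream boundary of Neurog1, the downstream one of Gap43 and both of Gng8 and Kit. A match inside the boundary itself was found for 2, Gap43 and Kit downstream, beside 6.27% of the list. Of the 8 matches, 3 pointed towards the gene, those of Neurog1 and the downstream one of Kit. With a looser consensus, in which each ambiguous position could be any base, 12 of the 14 had a match within 10 kb, beside 75.4% of the list. The list counts each boundary once, not once per gene start that it flanks. Its shares are therefore not a like-for-like background for the 14, and no difference was tested. A match is a run of letters in the reference, not a measured binding site.

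Other genes of the lineage were placed by the same measures. Of 9 progenitor regulators, 2 started within 10 kb of a boundary, Hes1, a Notch target, at 0.617 kb and Sox4, the SoxC relative of Sox11, at 1.29 kb. Both boundaries were Weak, with scores of 0.287 and 0.447. The farthest of that list were the Notch target Hes5 at 109.1 kb and Pax6, an eye and olfactory transcription factor, at 178.9 kb. Of 6 genes of proliferating cells, 0 lay within 10 kb (a share of up to 50% by 3 counts). Cdk1 and Mki67 were nearest at 17.9 and 33.6 kb, and Top2a and Ezh2 farthest at 109.2 and 269.7 kb. Of 11 genes of the immature neuron's cytoskeleton and guidance, 0 lay within 10 kb (up to 27.3%). Tubb3, neuronal tubulin, was nearest at 28.6 kb and Dbn1 followed at 36.9 kb, while Dcx and Cxcr4 were farthest at 76.7 and 112.3 kb. The 26 together had a median distance of 49.0 kb and 2 starts within 10 kb, beside 12.5% of all protein-coding starts.

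Family relatives of the 7 genes were drawn up as a list with earlier results of these data known. They started within 10 kb of a boundary in 6 of 17 cases, or 35.3%, beside 12.5% of all starts. The exact 95% interval, 14.2 to 61.7%, covers counting error only and not the choice of genes, and the difference was not tested. The 6 were Hes1, Sox4, Gng13 (start inside a Strong boundary), Flt3 (5.49 kb), Pdgfra (7.71 kb) and Hes7 (9.60 kb). Hes1, Hes5 and Sox4 are also among the progenitor regulators, and Gng13 among the mature neuron genes. The farthest relatives were Kitl, the ligand of Kit, at 135.6 kb and Neurod6 at 151.3 kb. The remaining relatives are named below after their values were seen. The Neurog genes all had short intervals, 95 kb for Neurog1, 155 kb for Neurog2 and 170.0 kb for Neurog3, which lie on 3 chromosomes and fall below the lower quartile of 195 kb. For Neurog1 and Neurog3 this rested on a Weak boundary with a low score (0.234 and 0.243), whereas both boundaries of Neurog2 were Strong. With scores of at least 0.3, Neurog1 had 260.0 kb, against a median of 340.0 kb for all protein-coding starts. Neurod1 at 260.0 kb stood between Neurod2 at 220.0 kb and Neurod6 at 420.0 kb, with Neurod4 at 715 kb. In the SoxC group, Sox11 and Sox4 had 1050.0 and 955 kb, whereas Sox12 had 110.0 kb. Hes6 and Hes5 each had 235 kb, Hes1 375 kb and Hes7 90.0 kb. Gng8 had the shortest interval of the gamma subunit genes compared, 115 kb against 185 to 270.0 kb for Gng7, Gng2 and Gng3, with Gng13 inside a boundary. Kit and its ligand gene Kitl had 685 and 745 kb, and the related receptor genes Pdgfra and Flt3 220.0 and 190.0 kb.

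Genes of other stages and cells gave a further comparison. Of 15 signalling genes of mature olfactory neurons, 1 started within 10 kb of a boundary (6.67%), Gng13, beside 12.5% of all starts. Gnal, the olfactory G protein alpha subunit gene, was next at 16.8 kb, and Ric8b and S100a5 were farthest at 107.4 and 136.5 kb. The nearest boundary was Strong for 3 of the 7 genes, for 4 of 9 progenitor regulators, 3 of 6 proliferation genes and 6 of 11 immature neuron genes, and for 11 of the 15 mature neuron genes, beside 62.9% of all starts. Both flanks were Strong for 1 of the 7, for 2 of 9 progenitor regulators, 3 of 6 proliferation genes and 3 of 11 immature neuron genes. The same held for 7 of the 14 mature neuron genes outside boundaries, beside 37.7% of all starts outside boundaries. Of 12 genes that mark non-neuronal epithelial cells, 0 were within 10 kb (up to 25.0% by 3 counts), beside the same 12.5%. Sox9 and Ascl3 were nearest at 17.2 and 26.7 kb, and Cyp2a5 and Trp63 farthest at 130.3 and 281 kb. For these non-neuronal genes the nearest boundary was Strong in 5 of 12 cases and both flanks were Strong in 4 of 12. These lists are small and none of these differences was tested.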

How the data were processed

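In situ Hi-C of both replicates, cut with DpnII, was processed by the authors on GRCm38. Per the labels, boundaries were called on the contact matrix of the combined replicates. The deposited score per boundary is the authors' own; the sources used here do not state its formula, the boundary caller, any filter or the aligner, so it served only to describe and rank boundaries within the list. Depth per sample is unknown.

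Gene starts were 5′ ends of GENCODE M21 gene records, and distances were taken to the nearest edge of a boundary. An interval is the stretch between adjacent boundaries. The CTCF consensus was searched on the reference sequence of the same assembly with Python 3.11.15 and pyfaidx. Coordinates are 1-based. No test was made: there is 1 group and no value per replicate. The distance step was checked on simulated boundaries and recovered 200 of 200 planted distances. The members and lists were chosen with earlier results of these data known. Named genes were the 7, protein-coding genes sharing their intervals or nearest to their boundaries within 50 kb, and from each other list those within 10 kb, the 2 nearest and the 2 farthest. A gene that this rule takes is not reported here. Alternatives were the gene body, other gene starts, boundary midpoints, stricter boundary sets, and other distance limits and motifs.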

Additional observations from a re-analysis of the deposited data

How the results depend on the processing

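A change in distance or interval length counted as a move from 5 kb, the width of a boundary, and a change in a count from 1.5 times. The number of the 7 genes within 10 kb of a boundary was 0 from gene bodies, from longest transcript starts, from RefSeq starts (added after seeing the data), from boundary midpoints, with Strong boundaries only, with scores of at least 0.3, inside the boundary and within 25 kb, and 3 within 50 kb. The median distance was 156 kb with Strong boundaries only and 156 kb with scores of at least 0.3, and 76.5 to 81.5 kb from gene bodies, other starts and midpoints. The median interval was 600.0 kb with Strong boundaries only and 425 kb with scores of at least 0.3, where all protein-coding starts had 500.0 and 340.0 kb. Genes alone in their interval, a count added after seeing the data, numbered 2 with Strong boundaries only and 3 with scores of at least 0.3, instead of 4. Of the 14 single distances and interval lengths, 10 moved with Strong boundaries only and 6 with scores of at least 0.3. Gene bodies moved 2 of the 7 distances, those of Gap43 and Kit. With both flanking scores at least 0.3 required in place of the Strong class, 4 genes passed instead of 1. The share of all protein-coding starts passing that looser rule was not taken. The 37.7% given above holds for the Strong class only, so the 4 cannot be read against it. Of the 14 flanking boundaries, those with a CTCF match numbered 2 inside the boundary, 8 within 25 kb and 12 with the looser consensus. The shares of the whole list were 6.27%, 38.1% and 75.4%, in that order. No paired analysis was possible because there is 1 group and the list pools both replicates; leaving out a replicate was not possible for the same reason. The depth behind each boundary is unknown, so it cannot be said how often a Weak boundary, such as that downstream of Hes6, would be called in either replicate.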

Other observations

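Noncoding genes shared the intervals that held a single protein-coding start. The interval of Sox11 contained 4 lincRNA genes and 1 transcribed pseudogene, all downstream of Sox11, the nearest lincRNA, Gm9866, starting 181.9 kb away. Around Kit there were 11 genes of other kinds, among them the lincRNA Gm43101, 152.7 kb downstream of the start, and Gm42800, 175.5 kb upstream. Gap43 held the miRNA gene Mir6540, 37.2 kb downstream of its start and within its body. These noncoding genes were named after their values were seen.

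GC content of the 7 intervals ran from 40.0% for Neurod1 and 40.4% for Gap43 to 49.1% for Hes6 and 51.8% for Gng8. The intervals on either side of that of Sox11 were 585 kb upstream and 250.0 kb downstream. For Kit, its 220.0 kb upstream and 135 kb downstream neighbours were shorter than its own interval of 685 kb, and for Neurog1 both neighbours, 160.0 and 210.0 kb, were longer than its own.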
